A study of Macaca fascicularis and Mus musculus with 42 samples.

Results

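TTR, APOB, APOA1, FABP1, HNF4A, VTN and AFP are 7 genes of yolk-sac visceral endoderm and fetal liver, read here in cells of the cynomolgus monkey (Macaca fascicularis) induced towards PGCLC, cells grown in culture to resemble primordial germ cells, from which eggs and sperm descend. They are 7 of the 26018 entries of the monkey table, and each was found by its symbol. They were chosen by their measured levels, which stood out in cells sorted as positive for the PRDM1 reporter alone. Their levels and differences are therefore described with no test, outside that gate too, where low levels are part of what made them stand out. 5 of the 7 genes encode secreted proteins, whereas FABP1 encodes a cytosolic protein and HNF4A a nuclear one.

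Visceral endoderm is the epithelium that covers the early embryo and later lines the yolk sac. Before the liver forms, it makes many of the plasma proteins that the liver makes afterwards, takes up nutrients by endocytosis and exports lipid as lipoprotein particles. HNF4A, a nuclear receptor, switches on many of these genes in mouse visceral endoderm and in liver. In the mouse, a region of this layer at the front of the embryo secretes inhibitors such as CER1 and DKK1.

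The series holds 42 bulk libraries of transcript 3′ ends, 38 from monkey and 4 from mouse, with levels in RPM, the reads of a gene per 1000000 reads of the library. The induced cells were embryonic stem cells (ESC) of the reporter line 656BTAG42, which carries tdTomato for PRDM1 (called Blimp1 in the labels) and EGFP for TFAP2C. They were grown as aggregates with BMP4 at 200 ng/ml, SCF at 100 ng/ml, EGF at 50 ng/ml, LIF at 1000 U/ml and Y27632 at 10 µM. The medium was either GK15, based on GMEM with 15% KSR serum replacement, or aRB27, based on Advanced RPMI1640 with B27. Sorted groups were BT (tdTomato alone), BTAG (both reporters) and AG mid (intermediate EGFP). After 9 libraries of doubtful label were left out, there were 3 BT libraries, 2 of day 4 and 1 of day 2, all in aRB27. There were 15 BTAG libraries, 8 in GK15 of days 2 to 10 and 7 in aRB27 of days 2, 4 and 6. There were 2 AG mid libraries, aRB27 of day 2 and GK15 of day 4. Undifferentiated ESC gave 5 libraries from lines without transgenes (2 from line CMK6 and 1 each from lines 656, 681F and 22) and 4 from reporter lines, of which 3 came from 656BTAG42 and 1 from 656BTAG63. The 4 mouse libraries were PGCLC of line R8 (Blimp1-membraneVenus, Dppa3-ECFP) on days 4 and 6 in GK15.

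Monkey libraries held 1.07 to 7.42 M reads and mouse libraries 2.26 to 2.48 M. The BT libraries held 1.996 and 2.74 M reads on day 4 and 2.91 M on day 2, so that 1 read was worth 0.34 to 0.50 RPM there. The labels do not say that libraries of a group came from separate cultures, so p-values measure only the spread between these libraries, which may be technical. The sorting genes followed the BT labels. PRDM1, a transcription factor of early germ cells that some endoderm also uses, stood at 104.02 and 114.32 RPM in BT day 4 and 85.1 RPM in BT day 2, against 118 to 318 RPM in BTAG. TFAP2C, a germ cell and trophoblast factor, stood at 3.48, 2.53 and 0.34 RPM in the same BT libraries, against 337 to 717 RPM in BTAG. In bulk RNA, fewer cells of a type and less RNA per cell cannot be told apart.

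Summed over the 7 genes, the level was 21.9 RPM in BT day 4 library 1, 361 RPM in BT day 4 library 2 and 2608 RPM in BT day 2. Outside the gate the sum was 0 to 9.96 RPM in the 15 BTAG libraries, 5.77 and 8.08 RPM in AG mid, 0 to 6.23 RPM in transgene-free ESC and 3.52 to 11.6 RPM in reporter ESC. All 7 genes were above each of the 21 kept reporter libraries outside the gate in BT day 2, where 7.4% of all 20850 genes with a read were. 6 of them were in BT day 4 library 2 (7.84% of all genes) and 2 in BT day 4 library 1 (4.97%). Each count and share took only genes with at least 3 reads in the BT library. These shares restate the choice of the genes and carry no test.

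**Figure D1:**
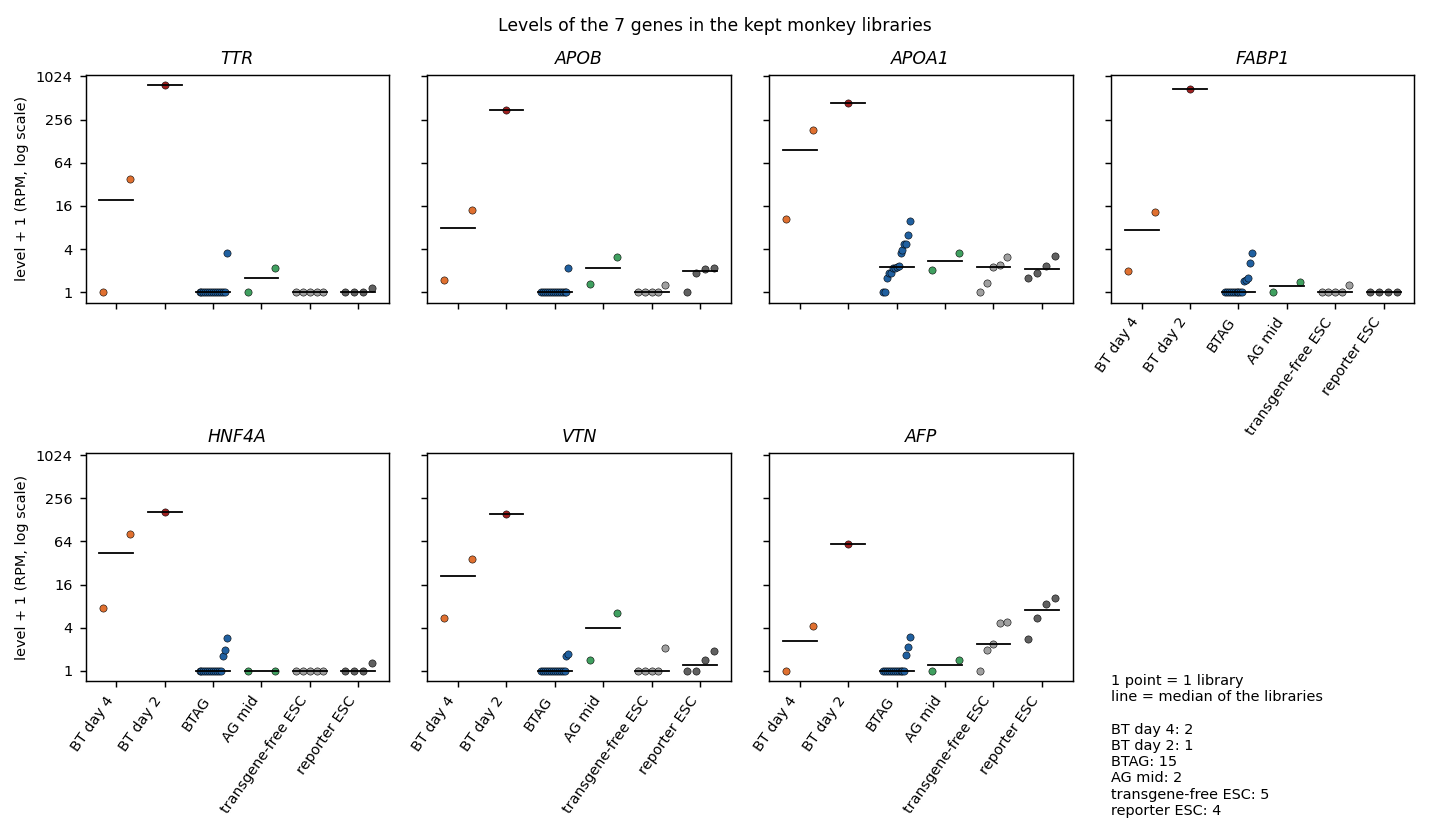
Level of each of the 7 genes (RPM + 1, log scale) in the kept monkey libraries, 1 point a library, with a line at the median of each group. BT day 2 is the highest library for every gene, the 2 BT day 4 libraries lie far apart, and AFP also shows a low level in ESC.

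The carrier proteins come first. TTR encodes transthyretin, which carries thyroid hormone and retinol-binding protein. It stood at 0 and 36.9 RPM in the BT day 4 libraries and at 778 RPM in BT day 2. It had no read in 14 of the 15 BTAG libraries, and 2.49 RPM, 4 reads, in the other. AFP encodes alpha-fetoprotein, the main plasma protein of the fetus and yolk sac. It stood at 0 and 3.26 RPM in BT day 4 and at 57.7 RPM in BT day 2, against 0 to 1.98 RPM in BTAG. The AFP level of 3.26 RPM in BT day 4 library 2 lay within the range of ESC, and BT day 2 alone lay above it.

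The apolipoproteins showed the same order of libraries. APOB, the backbone of chylomicrons and very low density lipoprotein, stood at 0.5 and 13.02 RPM in BT day 4 and at 344 RPM in BT day 2, against 0 to 1.17 RPM in BTAG. APOA1, the main protein of high density lipoprotein, stood at 9.46 and 180.16 RPM in BT day 4 and at 436 RPM in BT day 2, against 0 to 8.83 RPM in BTAG, with a BTAG median of 1.27 RPM. APOA1 was thus the only one of the 7 genes with a read in most BTAG libraries, 13 of 15. The lowest BT library and the highest BTAG library for APOA1 lay close together, at 9.46 and 8.83 RPM, so day 4 library 1 was barely apart from the BTAG range.

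FABP1, the liver fatty acid binding protein, stood at 1.0 and 11.94 RPM in BT day 4 and at 675 RPM in BT day 2, against 0 to 2.49 RPM in BTAG. VTN encodes vitronectin, a plasma and matrix protein that binds integrins. It stood at 4.48 and 35.1 RPM in BT day 4 and at 151 RPM in BT day 2, against 0 to 0.75 RPM in BTAG, though AG mid of day 4 held 5.53 RPM, above BT day 4 library 1. HNF4A stood at 6.47 and 80.7 RPM in BT day 4 and at 166 RPM in BT day 2, against 0 to 1.87 RPM in BTAG. For HNF4A and APOA1, all 3 BT libraries lay above every kept library outside the gate. For the other 5 genes, BT day 4 library 1 lay within the range outside it.

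The 2 BT day 4 libraries lay far apart, so each was set against BT day 2 alone, a comparison chosen after the levels had been seen. In library 2, HNF4A held 48.6% of its day 2 level (95% exact counting interval 41.3% to 57.1%) and APOA1 41.4% (37.2% to 45.9%). VTN held 23.2% (18.4% to 29.0%). AFP held 5.64% (2.54% to 10.96%), TTR 4.74% (3.85% to 5.78%), APOB 3.79% (2.64% to 5.28%) and FABP1 1.77% (1.22% to 2.49%). HNF4A, APOA1 and VTN thus held the larger shares of their day 2 levels in this library, a description of 1 library set against 1 other.

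In BT day 4 library 1 each of the 7 shares was lower. HNF4A held 3.90%, VTN 2.96% and APOA1 2.17%, against 0.148% for FABP1 and 0.145% for APOB. TTR had no read there, which allows up to 0.236%, and AFP had none, which allows up to 3.22%. HNF4A, VTN and APOA1 again held the larger shares, though the upper bound for AFP lies above the shares of VTN and APOA1. The intervals cover counting error only, and for every gene but AFP the intervals of the 2 day 4 libraries do not meet. All BT libraries carry the title code MS162, with number 075 on day 2 and numbers 077 and 092 on day 4. These numbers were cut here after 080 into runs, a cut that the labels do not mark. By this cut, BT day 4 library 1 falls in the run of BT day 2, and BT day 4 library 2 in another.

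**Figure D2:**
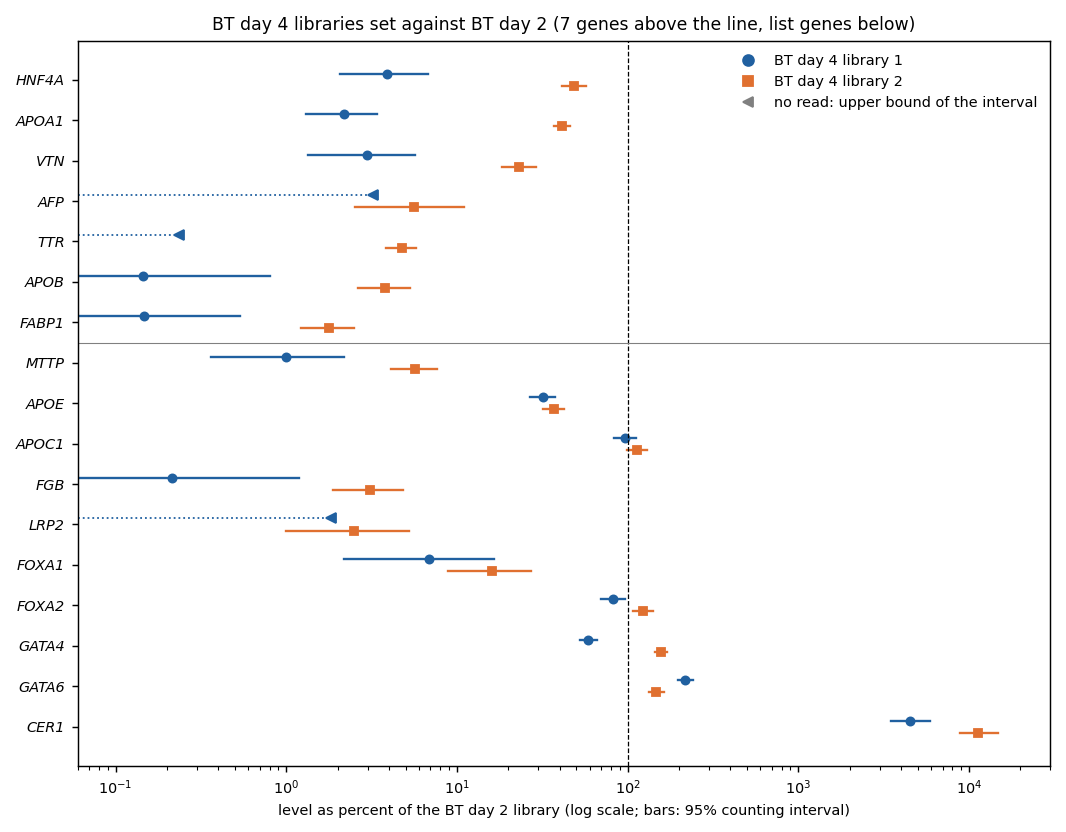
Level in each BT day 4 library as a percent of the BT day 2 library (log scale), with 95% counting intervals, for the 7 genes above the line and for list genes below it. HNF4A, APOA1 and VTN hold larger shares than TTR, APOB and FABP1 in both libraries, APOC1 and FOXA2 lie near 100%, GATA6 lies above it, and CER1 lies far above it.

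The gene lists of the same biology were read in the fit over all genes. A gene was called at a Benjamini-Hochberg adjusted p under 0.05 from limma and a difference of at least 1 on the log2(RPM + 1) scale, which understates changes of low genes. Genes tested reached 10 RPM in at least 2 libraries. MTTP, CEBPA and GSC, among other list genes, did so only in BT libraries. Their calls therefore follow in part from that filter, and the counts of the lists include them. Of 10701 genes tested, 15.1% were called in BT day 4 against BTAG day 4, 8.05% higher and 7.08% lower. In BT day 2 against BTAG day 2, 6.94% were called, 3.19% higher and 3.76% lower. BT day 2 is 1 library whose spread was taken from the other groups, and this second comparison was added after the levels had been seen. The split turned to 440 higher and 527 lower on day 4 when only genes averaging 20 RPM or more were fitted, and to 409 higher and 355 lower on day 2 with edgeR on recovered reads. The day 2 count of 743 genes fell to 414 without BTAG day 2 library 2. With the 9 doubtful libraries kept under their labels, day 4 calls numbered 403 instead of 1619 and day 2 calls 78 instead of 743.

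Among lipoprotein genes, 13 of 15 were in the table and 7 passed the filter of 10 RPM in at least 2 libraries. 3 were called higher and none lower on each day. The median difference of the 7 was 0.32 on day 4 and 1.31 on day 2, against 0.07 and -0.04 over all genes. MTTP, the microsomal protein that loads lipid onto APOB, stood at 2.99 and 17.0 RPM in BT day 4 against 0 and 1.87 RPM in BTAG day 4. It stood at 299.96 RPM in BT day 2 against 1.17 and 2.44 RPM in BTAG day 2, a log2 difference of 6.78 ± 0.86 (SE). MTTP was at most 2.44 RPM in the kept reporter libraries outside the gate, so it passed the filter only through BT libraries. Its day 4 difference of 2.32 ± 0.70 lost its call without BTAG day 4 library 1. APOE, the ligand through which remnant particles are taken up, stood at 87.6 and 101.66 RPM in BT day 4 against 42.6 and 37.4 RPM in BTAG day 4. It stood at 276.05 RPM in BT day 2 against 64.3 and 46.8 RPM in BTAG day 2 (log2 difference 2.31 ± 0.44). The APOE call on day 4, at 1.22 ± 0.36, was lost without any 1 of the 4 libraries compared. APOC1, a small apolipoprotein that slows particle uptake, was called on day 4, at 145 and 172 RPM in BT against 17.9 and 40.5 RPM in BTAG (2.51 ± 0.36). APOM, which carries sphingosine phosphate, was called on day 2, at 28.4 RPM in BT against 2.92 and 5.36 RPM in BTAG (2.56 ± 0.68), but not without BTAG day 2 library 1. APOA2, APOC3 and APOA4 were below the filter, at 19.1, 5.47 and 1.37 RPM in BT day 2. APOA5 and APOH were at 0 in all 3 BT libraries, and at most 0.93 RPM in the kept reporter libraries outside the gate.

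Of 28 secreted plasma protein genes, 3 passed the filter. TFPI, the inhibitor of the tissue factor pathway of clotting, was called on both days, at 44.8 and 102.38 RPM in BT day 4 against 4.61 and 6.85 RPM in BTAG day 4 (3.37 ± 0.61) and at 215 RPM in BT day 2 against 13.4 and 6.82 RPM in BTAG day 2 (4.35 ± 0.75). SERPING1, the inhibitor of complement C1, passed the filter and was not called on either day. The other gene tested, HP (haptoglobin, which binds free haemoglobin), stood at 0.5 and 30.8 RPM in BT day 4 and 1.71 RPM in BT day 2, and was not called. Genes above every kept reporter library outside the gate were again counted at 3 reads or more, with the shares over all genes given above. They numbered 11 of the 28 in BT day 4 library 2, 1 in BT day 4 library 1 and 11 in BT day 2. The fibrinogen chains, which form the clot, were among them. FGB stood at 0.5 and 7.24 RPM in BT day 4 and at 233 RPM in BT day 2, against at most 0.88 RPM outside the gate. FGG stood at 0 and 3.62 RPM in BT day 4 and at 33.8 RPM in BT day 2, and FGA at 0.5 and 3.98 RPM and at 14.7 RPM. F2, prothrombin, stood at 0.5 and 4.7 RPM in BT day 4 and at 55.4 RPM in BT day 2, against at most 1.76 RPM outside.

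Several proteins that a hepatocyte secretes in bulk were near or at 0. ALB, serum albumin, had no read in BT day 4 and 2.39 RPM, 7 reads, in BT day 2. TF, GC, KNG1, AHSG, HRG, ORM1 and ITIH2 were at 0 in all 3 BT libraries. In the kept reporter libraries outside the gate, AHSG, HRG and ITIH2 reached 0.6 RPM, ORM1 0.42 RPM and GC 0.17 RPM. TF and KNG1 were at 0 there too. For TF and KNG1, these data therefore do not show whether the entries can be read at all. The others were read only at these low levels. SERPINA1, the antitrypsin of plasma, stood at 0 and 0.72 RPM in BT day 4 and 0 in BT day 2. In all, 19 and 11 of the 28 genes were at 0 in the BT day 4 libraries and 9 in BT day 2. Of this liver-type set, fibrinogen and prothrombin were thus read well above the levels outside the gate in BT day 2, albumin had 7 reads there and transferrin none.

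**Figure D3:**
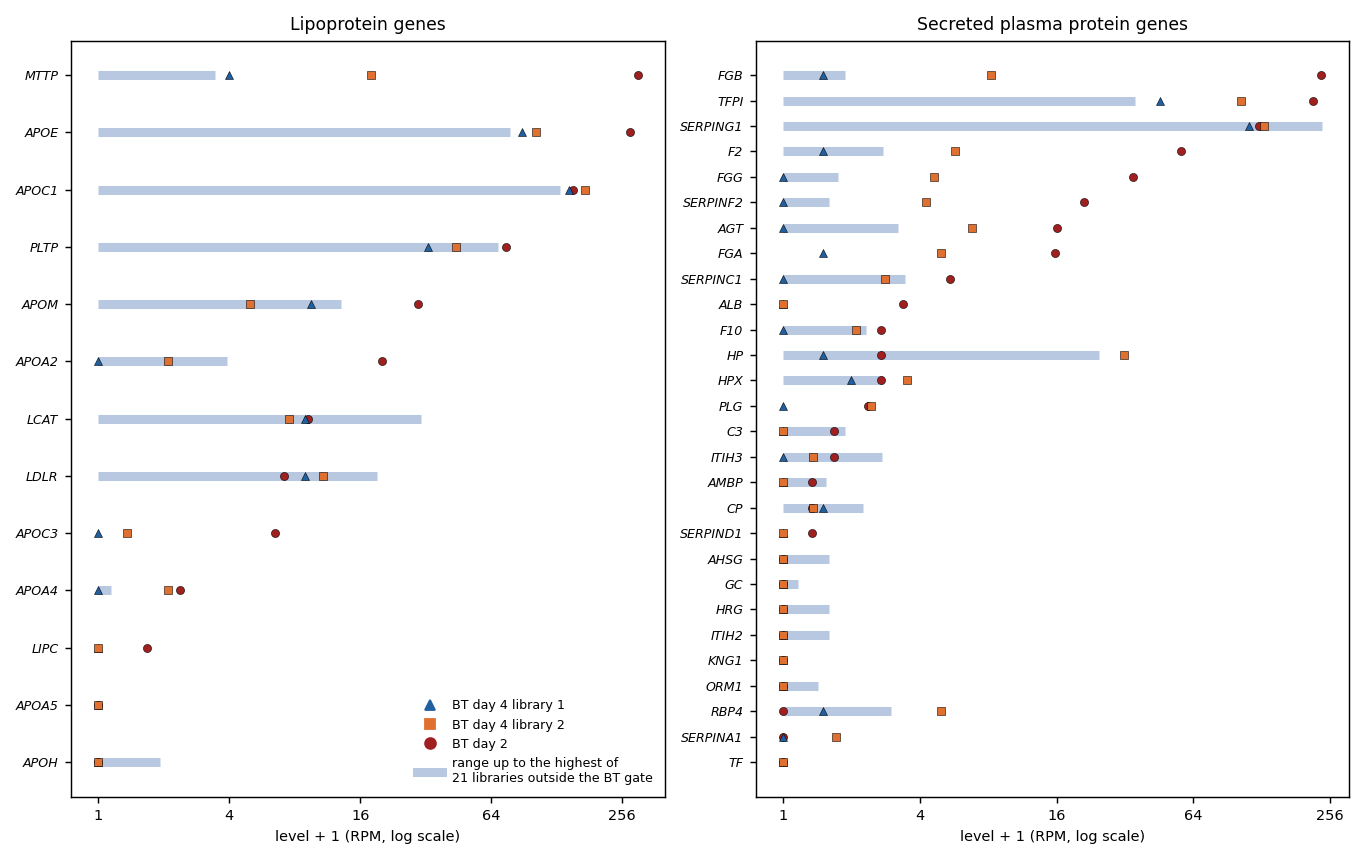
Levels (RPM + 1, log scale) of 13 lipoprotein and 28 secreted plasma protein genes in the 3 BT libraries, with bars up to the highest of 21 kept reporter libraries outside the BT gate. FGB, F2, FGG and SERPINF2 in BT day 2 lie far beyond the bars, as does MTTP, whereas TF, KNG1 and GC lie at 0.

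Of 17 endoderm and liver transcription factors, 11 passed the filter. 5 were called higher and 1 lower in BT on day 4, and 5 higher and none lower on day 2, with list medians of 1.397 on day 4 and 2.98 on day 2. GATA4, a zinc finger factor of endoderm and heart, stood at 207 and 553 RPM in BT day 4 and 351 RPM in BT day 2, against 36.9 and 60.4 RPM in BTAG day 4 and 46.2 and 41.4 RPM in BTAG day 2. It was called on both days, at 2.82 ± 0.53 and 2.98 ± 0.65. GATA6, its relative that founds the primitive endoderm, stood at 480.29 and 325 RPM in BT day 4 against 5.18 and 1.87 RPM in BTAG day 4 (6.56 ± 1.01). It was not called on day 2, at 220.4 RPM in BT against 39.7 and 3.9 RPM in BTAG.

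FOXA3, a forkhead factor of gut and liver, was called on both days. FOXA2, its relative, was called on day 4 alone (2.98 ± 0.68), not without BTAG day 4 library 2. FOXA2 was not called in BT day 4 against BT day 2. No test compared its difference between BT and BTAG across the days. CEBPA, a factor of liver and fat cells, was called on day 2, at 53.3 RPM in BT against 0.58 and 1.46 RPM in BTAG (4.78 ± 0.72). FOXA1 was called on day 2 (3.24 ± 0.60). The gene called lower on day 4 was HNF4G, the paralog of HNF4A, at 1.0 and 0 RPM in BT against 2.3 and 7.47 RPM in BTAG (-1.90 ± 0.64). SOX17, a factor shared by endoderm and primate germ cells, was read in both gates, at 925 and 716 RPM in BT day 4 against 860 and 950 RPM in BTAG day 4, and at 475 RPM in BT day 2 against 1110 and 1132 RPM in BTAG day 2. NR1H4 had no read in BT or in the kept reporter libraries outside it.

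The endocytic genes of visceral endoderm numbered 6, of which 4 passed the filter. 1 was called higher on day 4 and 2 on day 2, and none lower. LRP2 (megalin), the receptor that takes up lipoproteins and vitamin carriers, stood at 0 and 2.53 RPM in BT day 4 and at 101.47 RPM in BT day 2, against 0 in both BTAG day 2 libraries (6.68 ± 0.72). GK15 AG mid of day 4 held it at 59.9 RPM, above both BT day 4 libraries. FOLR1, a folate receptor, was called on day 2, at 31.8 RPM in BT against 2.92 and 0.49 RPM in BTAG (3.76 ± 0.97), but not without BTAG day 2 library 2. CUBN (cubilin), the partner of megalin, was below the filter, at 14.7 RPM in BT day 2. AMN, which anchors cubilin, had no read in BT or in the kept reporter libraries outside it. SLC39A8, a metal transporter, was called on day 4 (2.27 ± 0.66) but not without BT day 4 library 1 or without either BTAG library.

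The fatty acid list, relatives and users of FABP1, did not move one way. Of 8 tested genes, 1 was called higher and 2 lower on day 4, and 1 lower on day 2, with medians of -0.59 and 0.02. PPARA, the nuclear receptor that turns on fatty acid oxidation, stood at 4.48 and 5.06 RPM in BT day 4 against 50.7 and 51.1 RPM in BTAG day 4 (-3.17 ± 0.37) and at 3.76 RPM in BT day 2 against 27.5 and 35.6 RPM in BTAG day 2 (-2.76 ± 0.46). CPT1A, the gate of fatty acid entry into mitochondria, was called lower on day 4 (-2.58 ± 0.79), a call kept only when BTAG day 4 library 2 was the library left out. ACADM, a mitochondrial dehydrogenase, was called higher on day 4 (1.73 ± 0.36). FABP5, a relative of FABP1 in many tissues, stood at 615 and 588 RPM in BT day 4 against 996 and 781 RPM in BTAG day 4, and was not called on either day.

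**Figure D4:**
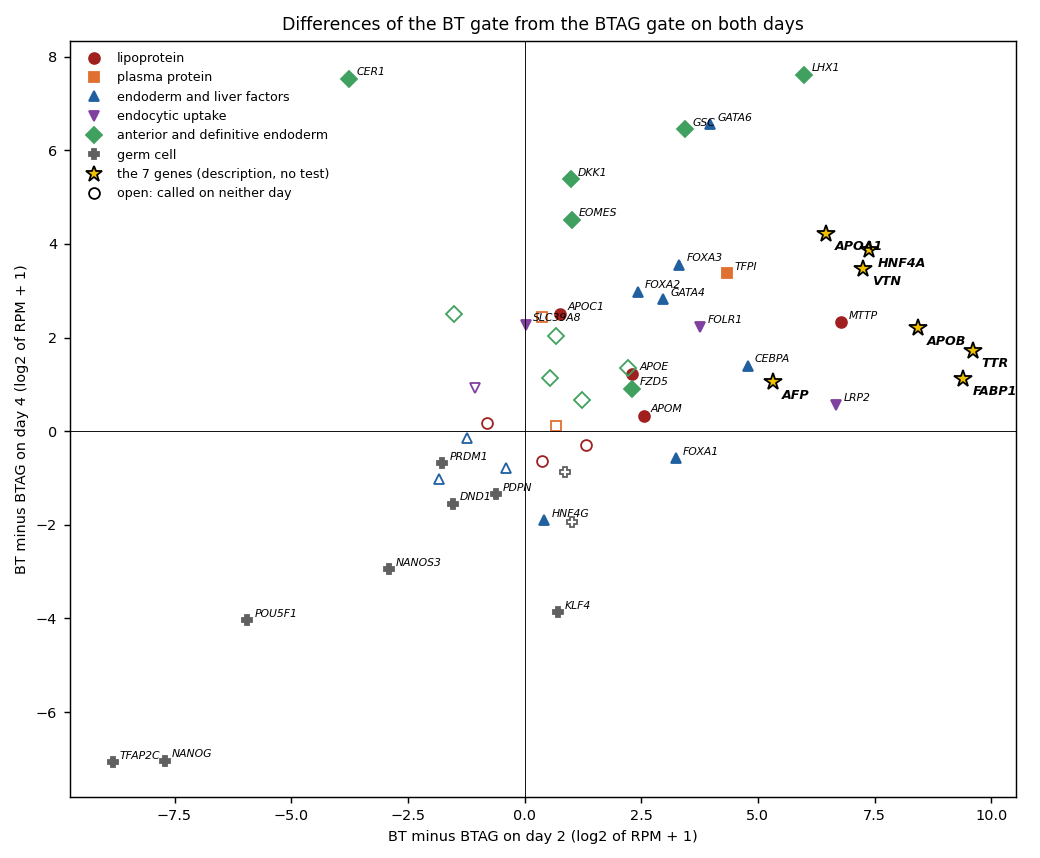
Difference of BT from BTAG on day 4 (vertical) and on day 2 (horizontal), on the log2(RPM + 1) scale, for genes of 6 lists that passed the filter and are reported, and for the 7 genes (stars). The stars lie far to the right, AFP, FABP1 and TTR lowest among them on the vertical axis and APOA1 highest, whereas LHX1, CER1, GATA6 and GSC lie above all stars.

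Genes of the anterior and definitive endoderm were read beside them. All 11 in the table passed the filter. 5 were called higher on day 4 and 3 on day 2, none lower, with medians of 2.49 and 1.01. LHX1, a homeobox factor of anterior visceral endoderm in the mouse, stood at 489 and 658 RPM in BT day 4 against 0.58 and 4.36 RPM in BTAG day 4 (7.61 ± 0.89), and at 302 RPM in BT day 2 against 8.18 and 1.46 RPM in BTAG day 2 (5.996 ± 1.09). CER1, a secreted inhibitor of Nodal and BMP, stood at 935 and 2363 RPM in BT day 4 against 0 and 63.5 RPM in BTAG day 4 (7.53 ± 1.78), a call lost without BT day 4 library 2 or BTAG day 4 library 1. In BT day 2 it stood at 20.8 RPM, below the 171 and 508 RPM of BTAG day 2, and was not called. GSC, a homeobox factor of the organizer, was called on day 4 (6.45 ± 0.69) and on day 2 (3.44 ± 0.85, not without BTAG day 2 library 2). DKK1, an inhibitor of Wnt signals, and EOMES, a T-box factor of mesendoderm, were called on day 4, at 5.38 ± 0.96 and 4.52 ± 0.99.

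Basement membrane genes of primitive and parietal endoderm were called higher for 6 of 8 on day 4 and 4 of 8 on day 2, with none lower. LAMA1, a laminin chain, stood at 13.4 and 90.8 RPM in BT day 4 against 0 and 1.87 RPM in BTAG day 4 (4.43 ± 0.75), and at 159.55 RPM in BT day 2 against 0.58 and 0.49 RPM in BTAG day 2 (6.71 ± 0.92). LAMB1 and SPARC were called on day 4, at 4.93 ± 0.65 and 3.18 ± 0.46. The list was not limited to BT, since its summed level was 937 to 1859 RPM in BT, 187 to 545 RPM in BTAG, 940.31 and 1868 RPM in AG mid and 644 to 968 RPM in reporter ESC. Of 7 tested epithelial genes, 1 was called higher on day 4 and 2 on day 2. KRT18, a keratin of simple epithelia, was called on both days (1.41 ± 0.28 and 1.34 ± 0.35), a day 2 call lost when either BTAG library was left out. CDH1 had no read in any BT library. It was also low in the 21 kept reporter libraries outside the gate, with a median of 0.42 RPM and a highest level of 8.96 RPM.

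Markers of other cell types were read the same way. Germ cell markers were called lower for 7 of 10 on day 4 and 6 of 10 on day 2, and their summed level was 973 to 1110 RPM in BT against 3219 to 7758 RPM in BTAG. The germ cell list includes TFAP2C and PRDM1, on whose reporters the cells were sorted. Part of its counts and summed levels thus follows from the sort. POU5F1, the pluripotency and germ cell factor, stood at 320 and 70.2 RPM in BT day 4 and 24.3 RPM in BT day 2, against 1219 to 2485 RPM in BTAG of these days. BT day 4 library 1, with the lower level of all 7 genes, had the highest POU5F1 and NANOG of the BT libraries (NANOG 7.47, 1.45 and 0.68 RPM). The list did not move one way, since KIT, ALPL, KLF4 and PDPN were lowest in that library. In the same order of libraries, KIT stood at 10.95, 139.28 and 86.44 RPM and ALPL at 97.05, 267.71 and 265.46 RPM. The part of germ cell markers in the gap between the day 4 libraries was not tested. Of 8 mesoderm and stroma markers, 1 was called higher on day 4, TBX20, and 2 higher and 1 lower on day 2. The summed level of that list was 4189 to 6147 RPM in BT and 1701 to 5500.48 RPM in BTAG. Of 3 tested blood and endothelium markers, 2 were called higher on day 4, CDH5 (2.30 ± 0.61) and KDR (2.78 ± 0.86), and none on day 2. Neither call held without BT day 4 library 2. The call of CDH5 was also lost without BT day 4 library 1 or BTAG day 4 library 2, and that of KDR without BTAG day 4 library 1. The summed level was 128 to 360 RPM in BT and 12.1 to 153 RPM in BTAG. The globin genes HBZ and HBE1 had no read in BT or in the kept reporter libraries outside it. Amnion markers were mixed, 1 higher and 2 lower of 5 on day 4 and 2 lower on day 2, with GABRP and, on day 2, TFAP2A at 0 in BT. The part of these markers in the levels of the 7 genes was not tested.

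In BT day 4 against BT day 2, 27 genes (0.252%) of 10701 were called, 8 (0.0748%) higher and 19 (0.178%) lower, and 666 had an unadjusted p under 0.05. With a pseudocount of 0.1 the split turned to 12 higher and 6 lower, with 9 genes shared with the 27, and edgeR on recovered reads gave 4 higher and 28 lower. The count was 94 without BT day 4 library 2 and 7 without library 1. The 7 genes had log2 differences of -7.05 (FABP1), -6.98 (TTR), -6.23 (APOB), -4.83 (AFP), -3.44 (VTN), -3.33 (APOA1) and -2.76 (HNF4A), given with no test. LRP2 fell by 5.77 ± 0.72 (limma adjusted p = 0.000818). MTTP, which passed the filter only through BT libraries, fell by 5.15 ± 0.86. FOXA1 fell by 2.93 ± 0.60, and neither call was kept without BT day 4 library 1. The epithelial genes EPCAM and KRT19 fell by 3.06 ± 0.61 and fell by 3.21 ± 0.61, with the same loss. When only the BT libraries were fitted, limma called 0 genes, with 341 at an unadjusted p under 0.05; edgeR and DESeq2 on recovered reads, over the 24 libraries, called 32 and 63. No gene of the anterior endoderm list was called, at a list median of 1.37 against 0.05 over all genes. CER1 in BT day 4 was at 4486% and 11340% of its day 2 level, from reads scaled to RPM. VTCN1, an amnion marker in primates, was the list gene called higher, at 10.95 and 6.87 RPM in BT day 4 against 0.34 RPM, 1 read, in BT day 2, and lost its call without BT day 4 library 1.

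Outside the BT gate the levels of the 7 genes are low. 6 of them passed the filter only through the BT libraries, and AFP did not pass it, so their differences outside the gate are given as values with no call. In BTAG of days 2 to 6 against reporter ESC, 21.9% of the 10701 genes were called. The log2(RPM + 1) differences of the 6 genes ran from -0.58 ± 0.45 (SE) for APOB to 0.77 ± 0.55 for APOA1. These values rest on levels of a few reads and depend on the scale. The log2 difference of APOB on recovered reads was -2.51 with DESeq2 and -3.49 with edgeR, and that of VTN, at -0.30 on the log2(RPM + 1) scale, was -1.95 and -2.65 with the same tools.

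AFP was the gene of the 7 with the most reads in reporter ESC. It stood at 0 to 1.98 RPM in BTAG, 8 reads over 15 libraries of days 2 to 10 with none in 12 of them, against 1.76, 4.41, 7.54 and 9.49 RPM in reporter ESC, 70 reads over 4 libraries. The ESC library at 9.49 RPM was of line 656BTAG63, whereas all 15 BTAG libraries were of 656BTAG42. The highest BTAG library and the lowest ESC library overlapped slightly. The log2(RPM + 1) difference of BTAG of days 2 to 6 from reporter ESC, computed with no filter after these reads had been seen, was -2.42 ± 0.45. It was -2.79 to -2.15 in runs that left out 1 library, -0.61 with a pseudocount of 10, -5.32 with DESeq2 on recovered reads and -1.27 with every library as labelled. In transgene-free ESC, AFP stood at 0 to 3.89 RPM with a median of 1.36 RPM, against a median of 5.98 RPM in reporter ESC, a difference of -1.25 ± 0.59, where 2 of the 5 transgene-free libraries share the line CMK6. APOB was at 0 in 4 of 5 transgene-free ESC libraries and at 0 to 1.18 RPM in reporter ESC (-0.70 ± 0.23).

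APOA1 was the gene read most evenly in BTAG. In GK15 it stood at 8.83 RPM on day 2, 3.67 RPM on day 4, 0.83 and 1.21 RPM on day 6, 0 and 0.88 RPM on day 8, and 0 and 3.77 RPM on day 10. In aRB27 it stood at 2.92 and 5.36 RPM on day 2, at 0.58 and 2.49 RPM on day 4 and at 1.27, 1.17 and 1.32 RPM on day 6. The day 2 libraries were the highest in each medium. The slope in GK15 was -0.27 ± 0.11 per day on the log2(RPM + 1) scale, given with no test. TTR had no read in any GK15 BTAG library.

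Between the media, GK15 minus aRB27 in BTAG of days 2 to 6, 0.0841% of 10701 genes were called. The differences of the 6 genes over the filter, given with no call, ran from -0.30 ± 0.67 for TTR to 0.60 ± 0.61 for APOA1. The aRB27 BTAG day 4 library 2 stood apart for several of the genes at once. It held TTR, APOA1 and FABP1 at 2.49 RPM each, HNF4A at 1.87 RPM and VTN at 0.62 RPM, and APOB and AFP at 0. Its partner, library 1, held APOA1 and FABP1 at 0.58 RPM and none of the others. By the same cut of title numbers, BTAG day 4 library 2 falls in the run of BT day 4 library 2, the BT day 4 library with the higher levels.

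AG mid cells held low levels. GK15 AG mid of day 4 had VTN at 5.53 RPM, TTR at 1.2 RPM, APOA1 at 1.05 RPM and APOB at 0.3 RPM, with no read of FABP1, HNF4A or AFP. aRB27 AG mid of day 2 had APOA1 at 2.48 RPM and APOB at 2.06 RPM, and HNF4A had no read. In mouse PGCLC of days 4 and 6, Ttr, Apob, Fabp1, Vtn and Afp had no read in any of the 4 libraries. Apoa1 and Hnf4a had 1 read each in 1 library, at 0.4 and 0.42 RPM. None of the 7 genes could be tested in mouse over the filter, where 2.59% of 8255 genes were called in day 6 against day 4.

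Genes with the most similar pattern were ranked by Pearson correlation of log2(RPM + 1) with the mean of the 7 genes over the 24 kept reporter libraries. Only genes that passed the filter were ranked, and entries named only by a LOC number were left out. Genes below the filter, such as FGB, FGA and F2, could not enter, so closer genes may exist among them. The ranking is a description that rests on the 3 BT libraries, which share a medium and a gate. MTTP came first (r = 0.96), with IHH, the hedgehog ligand that visceral endoderm makes in the mouse, next (r = 0.95). IHH stood at 0.5 and 86.8 RPM in BT day 4 and 131 RPM in BT day 2, against at most 2.06 RPM outside the gate. WNT11, a Wnt ligand (r = 0.94), GPX2, a glutathione peroxidase of gut epithelium (0.91), PKIB, an inhibitor of protein kinase A (0.91), BMP6, a bone morphogenetic protein (0.91), TMEM150C (0.90) and ALDH1A1, which makes retinoic acid (0.895), followed. BMP6 differed from the rest in that all kept libraries held it, with a median of 16.6 RPM outside the gate. By gene, MTTP was closest to TTR and FABP1, IHH to APOB and APOA1, THBD (thrombomodulin) to HNF4A (r = 0.96), BMP5 to VTN (0.94) and S100A13, a calcium-binding protein, to AFP (0.845). Among the 7 genes the correlations were 0.85 to 0.97 except for those with AFP, at 0.56 to 0.78.

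**Figure D5:**
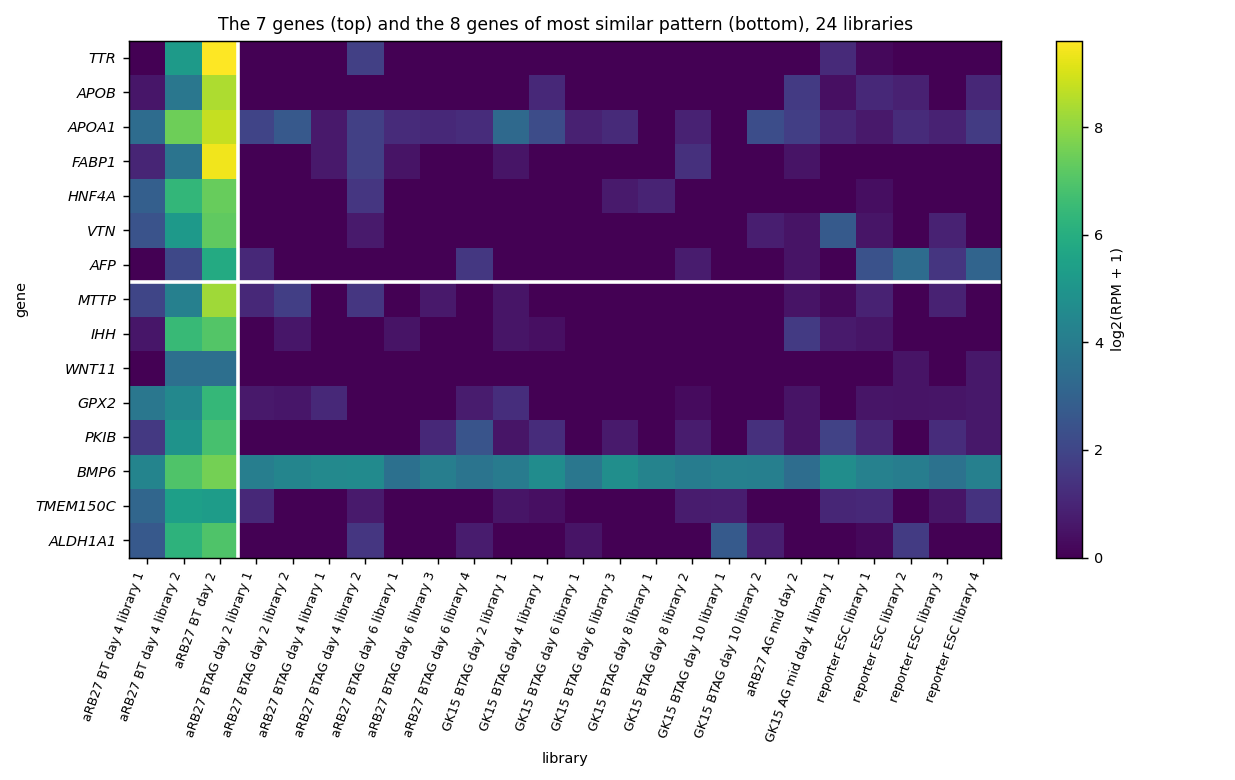
log2(RPM + 1) of the 7 genes (top rows) and of the 8 genes of most similar pattern among those that passed the filter (bottom rows) in the 24 kept reporter libraries, BT libraries at the left. The highest value of each gene is in BT day 2 or BT day 4 library 2, BT day 4 library 1 is lower than both in each row, AFP in BT day 4 library 2 lies below 3 reporter ESC libraries, and BMP6 is read in all libraries.

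All 7 gene IDs were found in the RefSeq table of the assembly T2T-MFA8v1.1, which the files do not name as theirs, so it served only for names and the order of genes. APOA1 lies beside APOC3, APOA4 and APOA5, of which APOC3 alone passed 5 RPM in BT day 2. AFP lies between AFM and ALB, where ALB had 7 reads in BT day 2. VTN lies beside SARM1, which stood at 3.98 and 9.77 RPM in BT day 4 and 21.2 RPM in BT day 2, against at most 6.13 RPM outside the gate. The neighbours of TTR (such as B4GALT6 and DSG2) were no higher in BT than in the highest library outside it. In that table HNF4A overlaps 2 unnamed genes and AFP overlaps 1, and without strand their reads cannot be told apart.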

How the data were processed

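The authors deposited RPM values, each gene's reads per 1000000 reads. The submitters' processing notes name GRCm38, Cufflinks 2.2.0, TopHat 1.4.1 and cutadapt 1.3, without saying which step used what; the build behind the monkey table is not given. Reads were recovered by dividing each value by the RPM that 1 read is worth in its library. In monkey libraries, 99.4% to 99.8% of values worth 100 reads or fewer lay within 0.1 reads of a whole number. The recovered reads served for counting intervals and count tests. The 96 mouse spike-in entries were left out.

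The 7 genes, the 9 libraries left out for doubtful labels and the 12 gene lists were chosen with earlier results of these data known. Tests used limma 3.58.1 in R 4.3.3 with an intensity trend on log2(RPM + 1), keeping genes that reached 10 RPM in 2 or more libraries, with 24 reporter libraries in 1 fit, and Benjamini-Hochberg adjustment over all genes tested. Calls needed an adjusted p under 0.05 and a log2 difference of at least 1 (slopes: 1 per 8 days). Genes were named by rule: the 7 genes, PRDM1 and TFAP2C, up to 4 called genes of each list in BT day 4 against BTAG day 4, and the 8 genes of most similar pattern. Similar genes were sought only among those that passed the filter, without LOC entries. Other list genes, such as those called on day 2 alone or below the filter, were named after their values were seen. Counts cover whole lists, but some list members are not reported here by name. The BT day 2 against BTAG day 2 comparison, the shares of BT day 2, the counts above every library outside the gate and the unfiltered AFP differences were also added after the data were seen. Each fit was repeated with a pseudocount of 0.1 or 10, unfiltered, on genes averaging 20 RPM or more, with median-of-ratios scaling, edgeR 4.0.16 and DESeq2 1.42.0 on recovered reads, every library as labelled, the run of title numbers as a block, only the groups compared, and each library left out. The labels do not describe counting, so reads of near-identical copies may be split, and depth set the precision: 1 read was worth 0.13 to 0.93 RPM in monkey libraries. 95% intervals are exact, from read counts, and cover counting error only; where a gene had no read, the upper bound is given.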

Additional observations from a re-analysis of the deposited data

Results flagged for a closer look

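In 11 groups of 4 or 5 ESC libraries with a value that varied, 5 values in 4 libraries stood apart from the rest of their group. All 5 rest on 1 to 3 reads in groups otherwise at 0, where any single library with a read stands apart, so the usual chance rate of about 1 in 20 groups does not apply: TTR at 0.15 RPM and HNF4A at 0.29 RPM in reporter ESC library 1, the deepest kept ESC library at 6.76 M reads, and APOB at 0.26 RPM, FABP1 at 0.25 RPM and VTN at 1.08 RPM in transgene-free ESC libraries 5, 3 and 2.

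In the 9 libraries that no comparison used, 4 levels exceeded every kept library outside the BT gate. AFP stood at 13.45 RPM (27 reads) under the label GK15 BTAG day 6 library 2 and at 10.14 RPM (29 reads) under GK15 BTAG day 2 library 2, against 9.49 RPM in the highest kept library, an ESC library. The library at 13.45 RPM and that ESC library are both labelled as line 656BTAG63. APOB stood at 4.9 RPM (14 reads) under GK15 BTAG day 2 library 2, against 2.06 RPM. VTN stood at 6.81 RPM (18 reads) under GK15 BTAG day 4 library 2, against 5.53 RPM. These labels are doubtful, so the levels were compared with no group.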

How the results depend on the processing

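No paired analysis was possible because the titles carry no replicate numbers shared between groups. The run of title numbers was fitted as a block instead. Title code MS134 made 1 run, and MS162 was cut after 080, a cut that the labels do not mark. In BT day 4 minus BTAG day 4 (1619 genes), a mean of at least 20 RPM gave 967 and every library as labelled 403, and runs without 1 library gave 1101 to 1422. In BT day 2 minus BTAG day 2 (743), a pseudocount of 0.1 gave 495, a mean of 20 RPM 420 and libraries as labelled 78, with 414 to 518 without 1 library. In BT day 4 minus BT day 2 (27), a pseudocount of 10 gave 80, no filter 203, a mean of 20 RPM 4, DESeq2 63, libraries as labelled 4 and only the groups compared 0 (341 at an unadjusted p under 0.05), with 7 to 94 without 1 library. In BTAG minus reporter ESC (2343), a pseudocount of 10 gave 1191, a mean of 20 RPM 1178 and libraries as labelled 1083. In GK15 minus aRB27 (9), pseudocounts of 0.1 and 10 gave 3 and 22, no filter 37, a mean of 20 RPM 5, median-of-ratios scaling 5, edgeR 4, DESeq2 49, libraries as labelled 1 and only the groups compared 15, with 3 to 18 without 1 library. The GK15 slope (1104) gave 364 to 1200 without 1 library, the lowest without day 2. In transgene-free minus reporter ESC (19), a mean of 20 RPM gave 12 and DESeq2 316, with 5 to 41 without 1 library. In mouse (214), a pseudocount of 10 gave 94, no filter 0 (2429 at an unadjusted p under 0.05; edgeR 244 with the filter), a mean of 20 RPM 130 and DESeq2 138, with 0 (either day 6 library left out) to 195 without 1 library. The cause of these moves was not tested. No value could be had without BT day 2, or without GK15 BTAG day 2 or day 4 in the comparisons between groups that use them. The GK15 slope could be fitted without either of the GK15 libraries.

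Of the called genes of the lists that the fits followed, 21 of 31 on day 4 and 19 of 30 on day 2 kept their call in every run without 1 library, 10 of 31 and 4 of 30 with libraries as labelled, and 31 of 31 and 29 of 30 with the block. In BT day 4 minus BT day 2, a pseudocount of 0.1 ended all 6 calls. For the 7 genes outside BT, values near 0 changed sign. In BTAG minus ESC these were edgeR (TTR -0.57, HNF4A -0.85), the block (TTR -0.0727, HNF4A -0.0408), leaving out 1 library (TTR -0.0504 without aRB27 BTAG day 4 library 2, to 0.25; HNF4A -0.0353 without the same library, to 0.218) and libraries as labelled (VTN 0.0863). In GK15 minus aRB27 these were libraries as labelled (APOA1 -0.14, VTN 0.52), the block (TTR 0.19, FABP1 0.0528, HNF4A 0.14, VTN 0.18) and leaving out 1 library (HNF4A 0.11 without aRB27 BTAG day 4 library 2, to -0.394). APOB in BTAG minus ESC, at -0.58, was -2.51 with DESeq2 and -3.49 with edgeR. Depth limits the 7 genes outside BT, where most values are 0 to 3 reads.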
